A study of Mus musculus with 8 samples.

Results

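The proteasome subunit mRNAs of mouse glomerular mesangial cells (MMC) were examined in WT and miR-379KO cells, in total RNA and in RNA recovered by immunoprecipitation of AGO2 (AGO2-IP). The genes were taken by symbol, as every Psma, Psmb, Psmc, Psmd, Psme, Psmf or Psmg gene with a number, which gave 49 of the 24639 genes listed. By role they were 8 alpha and 8 beta genes of the 20S core, 3 immunoproteasome genes (Psmb8, Psmb9 and Psmb10), 6 ATPases and 11 non-ATPase subunits of the 19S cap, 3 assembly chaperones of the cap, 4 of the core, and 6 activators or inhibitors.

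The proteasome degrades proteins tagged with ubiquitin. Its 20S core is a barrel of stacked alpha and beta rings whose catalytic beta subunits cut the unfolded protein, and its 19S cap binds ubiquitin, removes it and feeds the protein in by means of a ring of ATPases. Interferon-exposed and immune cells replace the catalytic beta subunits by the immunoproteasome forms, which change the peptides offered on MHC class I, while the core genes are raised together by the factor NFE2L1 when proteasome activity is short.

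Cells were primary MMC from kidney glomeruli of C57BL/6J mice, wild type (WT) or with a CRISPR-Cas9 deletion at miR-379 (miR-379KO), grown in RPMI with serum and without treatment. Each genotype had 2 libraries, A and B, for each assay, which gave 4 groups and 8 libraries. AGO2 is the Argonaute protein that microRNAs guide to their target RNAs. Glomeruli were pooled to start the cultures, the age and sex of the mice are not in the labels, and the study describes A and B as independent samples, so p-values measure the spread between 2 libraries a group.

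Total RNA libraries, made from poly(A) RNA, held 17168230 to 22660743 reads in genes. The AGO2-IP libraries, made from cross-linked and sonicated lysate, held 17095021 and 9586299 in the WT and 6545652 and 5587611 in the miR-379KO MMC, and 1115782 to 1875037 once the ribosomal RNA entry Rn45s and the entry Lars2 were set aside. Of the uniquely placed AGO2-IP reads, 46.6% and 49.7% lay outside genes in WT and 73.4% and 76.4% in miR-379KO libraries. The entry Mir379 held 0 reads in all 4 total RNA libraries, and 0 and 4 in the WT against 1 and 0 in the miR-379KO AGO2-IP libraries, so these counts do not check the genotype. In total RNA, 7 of 10 mesangial markers exceeded 1 CPM (reads scaled to library size) in every library. The list summed to 12275 to 19404 CPM, of which Acta2 gave 6886 to 10696 and Tagln 4019 to 6825. Thy1 and Pdgfra were near 0, and Itga8 ran from 0.383 CPM in WT B to 2.27 in WT A. Podocyte markers summed to 244 to 634 CPM, of which Synpo gave 195 to 516, and Nphs1 had 0 to 4 reads. Endothelial markers summed to 8.11 to 18.2 CPM and tubule markers to 6.56 to 52.5 with Slc34a1 and Umod at 0. The 8 markers of macrophages and other immune cells, which carry the immunoproteasome, summed to 1.85 to 5.65 CPM.

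The microRNA targeted in the knockout is shown because its seed, bases 2 to 8 (in capitals), decides which mRNAs could pair with it. The mature miR-379-5p (RefSeq, GRCm38.p6, chr12:109709065-109709085, plus strand) reads 5′ to 3′:
miR-379-5p: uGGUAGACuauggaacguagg
The match to this seed, GTCTACC, was present in the longest annotated 3′-UTR of 0 of the 49 proteasome genes and of 777 of 19140 genes with a 3′-UTR (4.06%). The 7-base match is a description of these sequences and does not exclude pairing elsewhere.

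Promoters, taken from 250 bases before to 50 bases after the start site, were found for 41 of the 49 genes (RefSeq, GRCm38.p6). The element TGANNNNGC, the core of the antioxidant response element bound by NFE2L1 and NFE2L2, occurred on either strand in 23 of the 41 (56.1%) and in 45% of all 27025 genes with a promoter. The stricter TGACNNNGC, which is contained in it, occurred in 6 (14.6%), those of Psmb5, Psmb6, Psmc6, Psmd9, Psmd12 and Psme4, and in 14% of all genes. The core of the interferon-stimulated response element, a pair of GAAA blocks 2 bases apart, occurred in 5 (12.2%), those of Psmb3, Psmd4, Psmd9, Psme1 and Psmg4, in 3.99% of all genes, and in 0 of the 3 immunoproteasome genes within this window. The promoters of the constitutive catalytic genes Psmb5 and Psmb6 and of their immunoproteasome counterparts Psmb8 and Psmb9 are shown because these pairs stood furthest apart in level. Capitals mark TGACNNNGC, which lay 47 to 39 bases before the start site in Psmb5 and 9 to 1 bases before it in Psmb6, and each is written 5′ to 3′ on the strand of its gene. They are chr14:54617946-54618245 (minus strand) for Psmb5, chr11:70525107-70525406 (plus) for Psmb6, chr17:34197945-34198244 (plus) for Psmb8 and chr17:34187281-34187580 (minus) for Psmb9.
Psmb5: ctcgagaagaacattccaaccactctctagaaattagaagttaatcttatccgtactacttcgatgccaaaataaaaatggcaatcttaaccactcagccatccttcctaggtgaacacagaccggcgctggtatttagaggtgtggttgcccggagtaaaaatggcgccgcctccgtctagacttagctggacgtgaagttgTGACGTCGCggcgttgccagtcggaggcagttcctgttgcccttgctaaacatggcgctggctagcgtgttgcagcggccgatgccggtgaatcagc
Psmb6: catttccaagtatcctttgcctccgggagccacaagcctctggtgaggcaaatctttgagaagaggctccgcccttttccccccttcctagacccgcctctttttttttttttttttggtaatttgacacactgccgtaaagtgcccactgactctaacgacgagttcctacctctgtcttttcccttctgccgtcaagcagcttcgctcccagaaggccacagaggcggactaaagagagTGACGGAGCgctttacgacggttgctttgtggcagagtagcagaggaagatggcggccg
Psmb8: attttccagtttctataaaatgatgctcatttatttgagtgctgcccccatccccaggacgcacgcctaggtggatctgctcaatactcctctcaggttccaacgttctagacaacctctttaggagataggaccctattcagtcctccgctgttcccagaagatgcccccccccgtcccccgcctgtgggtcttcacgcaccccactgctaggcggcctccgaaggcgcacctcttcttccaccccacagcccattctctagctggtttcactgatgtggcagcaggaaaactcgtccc
Psmb9: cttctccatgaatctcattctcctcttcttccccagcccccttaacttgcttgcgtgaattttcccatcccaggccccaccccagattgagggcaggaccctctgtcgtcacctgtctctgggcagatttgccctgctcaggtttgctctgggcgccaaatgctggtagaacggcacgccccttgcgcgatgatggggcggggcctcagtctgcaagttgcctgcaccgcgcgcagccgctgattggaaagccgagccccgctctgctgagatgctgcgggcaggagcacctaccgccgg
Psmb8 and Psmb9 lie close together in the MHC region of chromosome 17, and neither promoter held TGACNNNGC.

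WT MMC expressed the constitutive proteasome at high and similar levels per length. In WT total RNA the 14 constitutive 20S genes, that is Psma1 to Psma7 and Psmb1 to Psmb7, ranged from 64.6 RPKM (reads per kilobase of exon, scaled to library size) for Psma3 to 168 for Psmb1, a 2.60-fold range. The 6 ATPases of the 19S base ranged 1.51-fold, from 82.2 RPKM for Psmc2 to 124 for Psmc3. The other 19S subunits ran from 57.3 RPKM for Psmd12 to 207 ± 89.6 (SD, n = 2) for Psmd8, the highest of the 49 genes. Psmd8, an essential subunit of the lid, stood at 144 and 271 RPKM in the WT libraries and at 236 and 269 in the miR-379KO libraries. WT A was the low library and the other 3 lay close together.

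Genes that help to build the particle but are not part of it were lower. The 20S chaperones Psmg1 to Psmg4, which pair the alpha subunits, had 8.57 to 15.3 RPKM in WT total RNA, and the 19S chaperones Psmd5, Psmd9 and Psmd10, which escort the ATPases, 10.5 to 33.6. Psme3 (PA28 gamma, the nuclear activator), Psme1 and Psme2 (PA28 alpha and beta) and Psme4 (PA200) stood at 44, 41.3, 39.9 and 28.5 RPKM, and Psmf1, the inhibitor PI31, at 11. Psme2b, a single-exon copy of Psme2, stood at 1.85 ± 1.89 (SD, n = 2) RPKM, and its reads cannot be fully told apart from Psme2 or from an overlapping gene on the same strand.

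Both tissue-restricted core genes were near absent. Psma8, the alpha subunit of the germ line, had 2 and 3 reads in the WT and 2 and 1 in the miR-379KO total RNA libraries. Psmb11, the beta subunit of the thymic cortex, had 2 and 4 against 3 and 3, the lowest level per length (0.04 RPKM in WT). A count of this size does not separate either gene from 0 or the genotypes from each other.

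**Figure D1:**
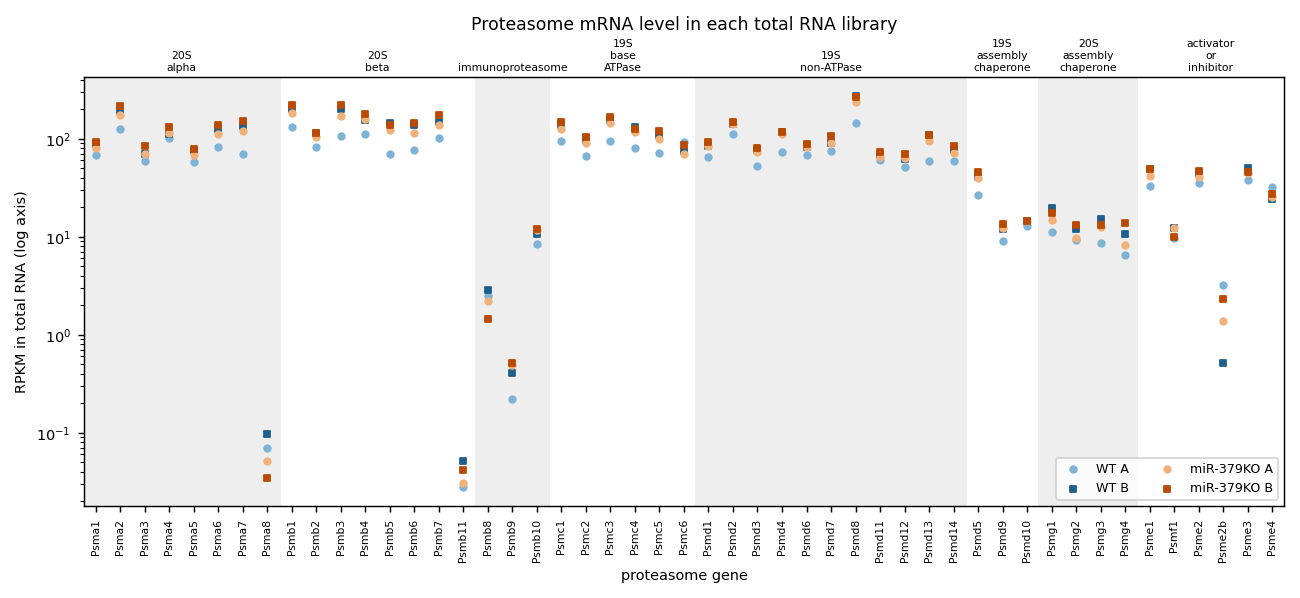
Level of each of the 49 proteasome genes in total RNA (RPKM, log axis) by role, 1 point a library. Constitutive 20S and 19S genes lie within a narrow band in all 4 libraries, WT A is mostly the lowest point, and Psma8, Psmb11 and Psmb9 lie at the bottom.

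The immunoproteasome genes stood far below the constitutive genes they replace. In the order WT A, WT B, miR-379KO A and miR-379KO B, Psmb8, which takes the place of Psmb5 (beta 5, chymotrypsin-like), had 51, 64, 62 and 30 reads, against 1009, 2299, 2435 and 2064 for Psmb5. Psmb9, which replaces Psmb6 (beta 1, caspase-like), had 3, 6, 9 and 7 reads, against 1325, 2617, 2700 and 2541. Psmb10, which replaces Psmb7 (beta 2, trypsin-like), had 181, 248, 344 and 258 reads, against 1634, 2638, 3084 and 2914. Psmb10 thus gave the most reads of the 3 immunoproteasome genes in every library.

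The ratio of each pair per length is free of library scaling. Psmb8 came to 3.60% of Psmb5 in WT A (exact 95% interval 2.66 to 4.77, counting error only), 1.98% in WT B (1.52 to 2.54), then 1.81% in the miR-379KO A library (1.39 to 2.33) and 1.04% in its B library (0.697 to 1.48). The mean was 2.79% ± 1.14 in WT and 1.42% ± 0.550 in miR-379KO MMC (SD, n = 2 each). Both miR-379KO ratios lay below both WT ratios, but WT B and miR-379KO A overlapped in counting error, and an exact two-sided permutation test of 2 against 2 libraries cannot go below p = 0.33.

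Psmb10 came to 8.45% and 7.17% of Psmb7 in WT and to 8.51% and 6.76% in miR-379KO libraries, which overlapped. Psmb9 came to 0.291% and 0.295% of Psmb6 in WT and to 0.428% and 0.354% in miR-379KO libraries, where both miR-379KO values were above both WT values but every counting interval held the other values. The miR-379KO mean divided by the WT mean was 0.51 for Psmb8/Psmb5, 1.34 for Psmb9/Psmb6 and 0.977 for Psmb10/Psmb7, so the 3 pairs did not move in 1 direction. The last of these turned to 1.06 without WT A and to 1.09 without miR-379KO B. For Psmb8/Psmb5 the WT mean leaned on WT A (3.60%), where Psmb5 had 1009 reads against 2299 in WT B. WT B alone stood at 1.98%, against the miR-379KO mean of 1.42%.

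**Figure D2:**
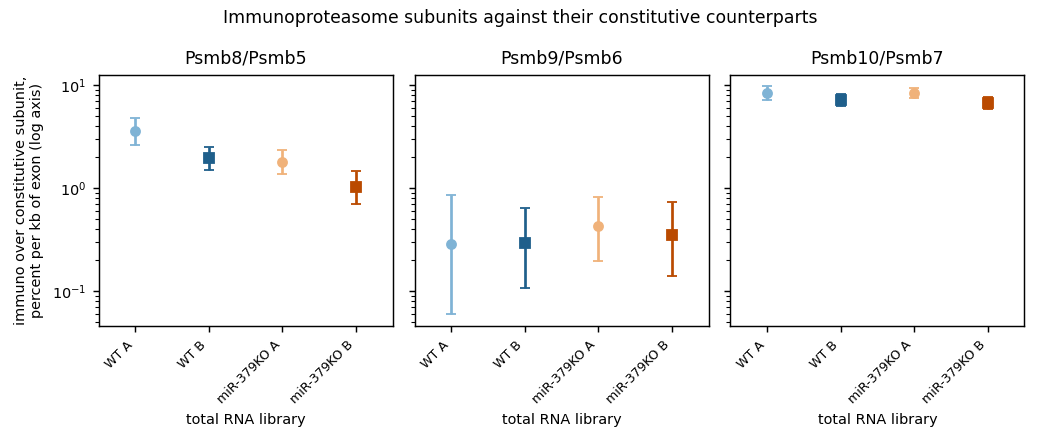
Immunoproteasome subunit as a percentage of its constitutive counterpart per kilobase of exon in each total RNA library (log axis), with exact 95% counting intervals. Psmb10 lies between 6.76% and 8.51% of Psmb7, Psmb9 at most at 0.428% of Psmb6, and Psmb8 is highest in WT A and lowest in miR-379KO B.

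Between genotypes, no proteasome gene passed the test of a change in total RNA. Of the 49 genes, 46 passed the filter on low counts and 0 passed edgeR's quasi-likelihood test at a Benjamini-Hochberg adjusted p under 0.05, where 0 of all 12321 genes tested passed (0%). At an unadjusted p under 0.05, 0 of the 46 and 91 of all genes passed, and DESeq2 also called 0. The study's own cutoff, which asked for more than a 1.5-fold change and an unadjusted p under 0.05, took 84 of all genes (0.682%) and 0 proteasome genes. The genes not tested were Psma8, Psmb11 and Psmb9. In RNA from a culture, fewer cells with an mRNA and less of it per cell cannot be told apart.

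The estimates that missed the threshold were mostly above 0. Of the 46, 42 had a positive log2 fold change (miR-379KO over WT) and 4 a negative one, with a median of 0.23, against -0.01 over all genes tested and 0.02 over the 3653 genes with a mean of over 1000 reads in total RNA, which include 34 of the proteasome genes. All 11 non-ATPase 19S genes were positive, as were all 7 tested alpha and all 7 tested beta genes of the core. Medians were 0.25 for the alpha genes, 0.29 for the beta genes, 0.24 for the 19S ATPases, 0.25 for the non-ATPases and 0.03 for the activators and inhibitor. None of these values passed the test.

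The largest estimates among the alpha, beta and ATPase genes were of similar size and had the same shape across libraries. Psma7, a core alpha gene, had 112 and 213 CPM in WT and 189 and 241 in miR-379KO libraries (log2 fold change 0.40 ± 0.35 SE). Psmb3, a core beta gene, had 77.5 and 146 against 125 and 161 CPM (0.35 ± 0.34). Psmc3, a 19S ATPase, had 153 and 252 against 234 and 272 CPM (0.32 ± 0.30). In all 3 genes the WT libraries differed from each other by more than the group means did, and the groups overlapped.

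The same shape held for the chaperones, with fewer reads. Psmd5, of the cap, had 55 and 82.4 against 80.5 and 93 CPM (log2 fold change 0.34 ± 0.26 SE), and Psmg4, of the core, 3.58 and 5.91 against 4.52 and 7.58 (0.35 ± 0.42). The groups overlapped in both. Psmd8 had 218 and 409 CPM in WT and 358 and 407 in miR-379KO libraries (0.29 ± 0.34).

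The 4 negative estimates were those of Psmb8, Psmc6, Psme4 and Psme2b. Psmb8 had 3.04 and 3.50 CPM in WT and 2.70 and 1.76 in miR-379KO libraries (log2 fold change -0.55 ± 0.42 SE, unadjusted p = 0.237 by edgeR's quasi-likelihood test). Both miR-379KO values lay below both WT values, and the gene had at most 64 reads in a library. Psme4, whose product PA200 caps the core without ATP, had 209 and 158 against 164 and 177 CPM (-0.11 ± 0.23), and Psmc6, a 19S ATPase, 143 and 117 against 109 and 135 CPM (-0.09 ± 0.23). In these 2 genes WT A was the highest library, and the groups overlapped.

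The regulatory particles outside the cap showed less difference. Psme1 had 32.3 and 48.4 CPM in WT and 40.7 and 47.9 in miR-379KO libraries (log2 fold change 0.13 ± 0.27 SE), and its partner Psme2 34.2 and 43.8 against 40.2 and 45.8 (0.14 ± 0.23). Psmf1 had 34.2 and 44 against 43.3 and 35.3 CPM (0.01 ± 0.24). The groups overlapped in all 3.

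This lean rested on the library WT A. It was the lowest of the 4 total RNA libraries in 42 of the 46 genes (91.3%), against 34.9% of all genes tested and 39.0% of the genes with over 1000 reads. The 4 exceptions were the 4 genes with negative estimates. Relative to each gene's mean over the 4 libraries, the median of the 46 was -0.36 on the log2 scale in WT A, 0.14 in WT B, 0.02 in miR-379KO A and 0.22 in miR-379KO B. The 49 genes together made up 0.460% of WT A reads in genes without Rn45s and Lars2, 0.658% of WT B, 0.60% of miR-379KO A and 0.660% of miR-379KO B (0.559% ± 0.140 and 0.630% ± 0.0427, SD, n = 2). WT B was therefore on a level with the miR-379KO libraries. WT A also had the largest Rn45s share of total RNA reads in genes (9.26%, against 4.52% to 7.04% in the other libraries). Its share of uniquely placed reads outside genes was the largest too (8.81%, against 6.41% to 6.78%). The part of these shares in the proteasome values was not tested.

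**Figure D3:**
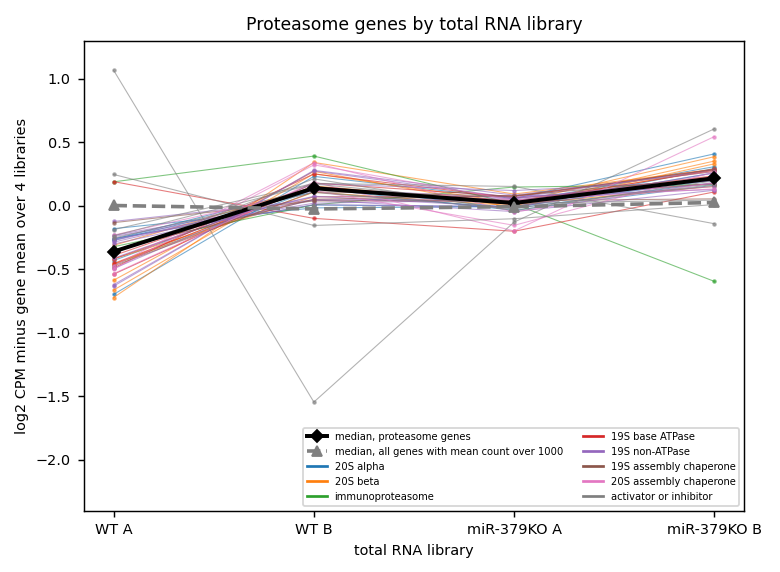
Log2 CPM of each of the 46 tested proteasome genes in the 4 total RNA libraries relative to its own mean (thin lines, coloured by role), with the median of these genes (black) and of all genes with over 1000 reads (grey, dashed). WT A lies below the other 3 libraries at -0.36, whereas the grey line stays near 0.

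Without WT A the median log2 fold change of the 46 genes was 0.0049, with 25 positive and 21 negative estimates, and without WT B it was 0.49. Without WT A Psmb5 (0.29 ± 0.36 SE with all libraries) stood at -0.14 and Psmb6 (0.26 ± 0.32) at -0.10. Psmb5 was 2.09-fold, Psma7 1.90-fold, Psmb3 1.89-fold and Psmd8 1.88-fold higher in WT B than in WT A, whereas the copy Psme2b went the other way, with 3.4 CPM in WT A and 0.547 in WT B. Across the 46 genes the log2 ratio of WT B over WT A ran with GC content (Spearman's rho 0.576) and against exon length (-0.377), and across 3651 genes with over 1000 reads the values were 0.425 and -0.625. These are correlations across genes within 1 pair of libraries, and genes are not replicates. With an offset for exon length and GC content the median log2 fold change (miR-379KO over WT) was 0.13. WT A also had the lowest summed mesangial and tubule markers and the highest summed podocyte markers (634 CPM). Members of these lists differed. Acta2, Tagln, Myl9, Cnn1 and Des were lowest in WT A, whereas Pdgfrb (202 CPM), Serpine2 (112) and Itga8 (2.27) were highest there. Most of the podocyte sum in WT A was Synpo (516 CPM), and Podxl was not highest in WT A (18.7 CPM, against 25.0 in miR-379KO A). The part of these markers in the proteasome values was not tested. The study's methods give single-end or paired-end reads for total RNA and do not say which library had which, so read layout cannot be set beside this difference.

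Groups without overlap were counted as a description. Both miR-379KO libraries were above both WT libraries in 9 of the 49 genes (Psma4, Psmb4, Psmb9, Psmb10, Psmd1, Psmd2, Psmd9, Psmd10 and Psmd12) and below in 2 (Psma8 and Psmb8). Psma8 had 1 to 3 reads and Psmb9 3 to 9 reads a library, too few to separate the genotypes. Among the 34 with over 1000 reads both miR-379KO libraries were above in 5, where 12.3% of all such genes had both above. The share was taken only over genes with over 1000 reads, and only for this direction. Psmb10 had 10.8 and 13.6 CPM in WT and 15 and 15.2 in miR-379KO libraries (log2 fold change 0.30 ± 0.25 SE), and Psmb7, its constitutive counterpart, 97.5 and 144 against 134 and 171 (0.34 ± 0.27). Psmb10 did not overlap between the groups and Psmb7 did, with nearly equal estimates.

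In AGO2-IP, 4 proteasome genes fell in miR-379KO MMC. Psmd3 (a scaffold subunit of the 19S lid), Psmb5 and Psmb6 (catalytic core subunits) and Psmd8 passed edgeR's quasi-likelihood test at a Benjamini-Hochberg adjusted p under 0.05, of 45 proteasome genes tested, and 0 rose. Of all 13505 genes tested, 1286 (9.52%) were called lower, and of those with over 1000 reads in total RNA, where all 4 called proteasome genes were, 963 of 3651 (26.4%). The 4 genes were 4 of 34 there, so the family was not called more often than other genes of its abundance. DESeq2 called 0 of the 45, with 4 at an unadjusted p under 0.05, against 15 by edgeR.

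The counts behind these calls were low. Psmd3 had 161 and 127 reads in the WT and 75 and 59 in the miR-379KO libraries, or 15.8 and 14.7 against 8.80 and 7.54 CPM (log2 fold change -0.90 ± 0.23 SE, adjusted p = 0.00571 by edgeR's quasi-likelihood test). Psmd8 had 226 and 196 against 116 and 105 reads, or 22.2 and 22.7 against 13.6 and 13.4 CPM (-0.73 ± 0.22, adjusted p = 0.0150 by the same edgeR test). In both genes the libraries of a genotype lay close together and the groups did not overlap.

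Psmb5 had 62 and 61 reads against 33 and 27, or 6.08 and 7.05 against 3.87 and 3.45 CPM (log2 fold change -0.83 ± 0.28 SE, adjusted p = 0.0272 by edgeR's quasi-likelihood test). Psmb6 had 77 and 81 against 45 and 38 reads, or 7.55 and 9.37 against 5.28 and 4.86 CPM (-0.73 ± 0.26, adjusted p = 0.0354 by the same edgeR test). Neither overlapped between genotypes. Psmb5 shares 109 bases with Mir686 on the same strand, so its reads there are uncertain. All 4 calls were lost under DESeq2 and with all 8 libraries in 1 fit, where 0 members were called. With an offset for exon length and GC content all 4 were also lost, and 5 other members were called lower (Psma1, Psma3, Psmc6, Psmd1 and Psmd11), against 32.5% of the genes with over 1000 reads. Without miR-379KO B the median log2 fold change of the members was -0.38, and without WT B -0.26. The genes with over 1000 reads had -0.38 and -0.41 there. Without WT A the members had -0.67 and without miR-379KO A -0.56, against -0.57 and -0.63 for the genes with over 1000 reads.

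Most of the family had estimates below 0, as did most abundant genes. Of 45 tested proteasome genes, 39 had a lower AGO2-IP estimate in miR-379KO than in WT MMC, and the median log2 fold change was -0.37, where that of all genes tested was -0.01. Among the 34 with over 1000 reads in total RNA the median was -0.45, and that of all 3651 such genes was also -0.45. The study's cutoff took 9 of the 45 proteasome genes as lower, against 13.3% of all genes. It took 1 (Psmb11) as higher, against 3520 of all 13505 genes. Of those with over 1000 reads in total RNA it took 8 of 34 proteasome genes and 1182 of all 3651 as lower. With only genes of at least 50 reads on average in the fit, the median of the proteasome genes was -0.03, with 16 of 32 negative, so the direction depends on which genes set the scale. With no filter on low counts 17 proteasome genes were called lower, against 43.1% of the genes with over 1000 reads. The medians there were -0.58 for the proteasome genes, -0.66 for the genes with over 1000 reads and 0.36 for all genes. The share of reads outside genes differed between the genotypes as given above, and its part in these values was not tested.

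**Figure D4:**
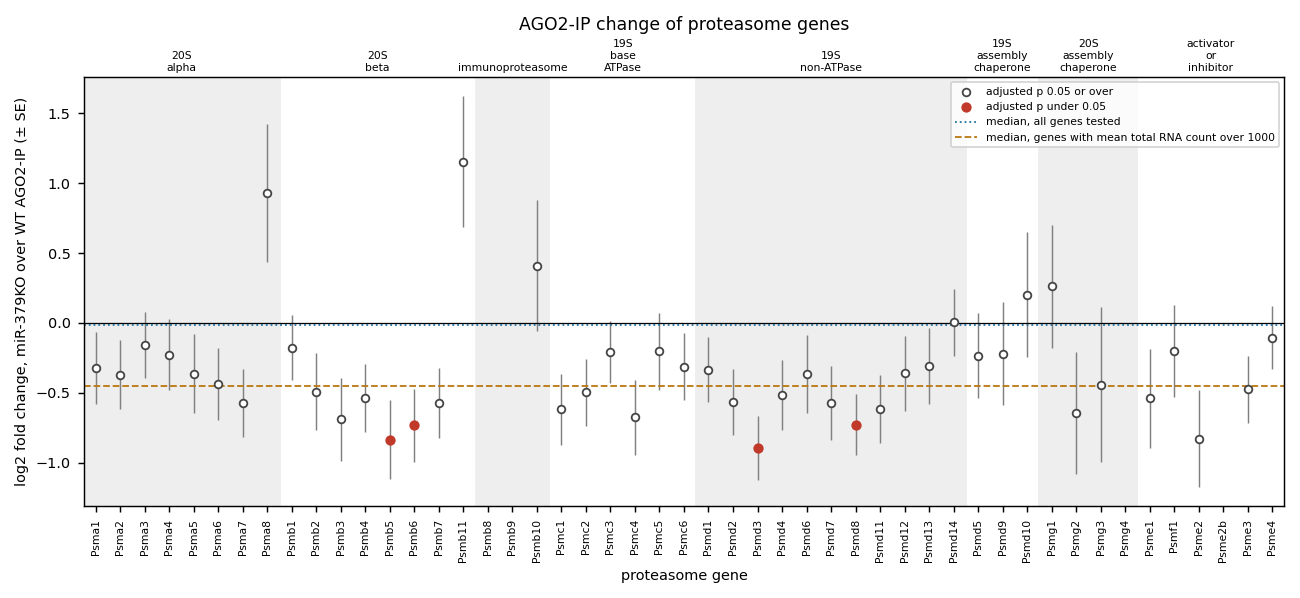
Log2 fold change of each tested proteasome gene in AGO2-IP (miR-379KO over WT, points with SE bars), with the 4 genes at an adjusted p under 0.05 in red. Most points lie around the dashed median of genes with over 1000 reads in total RNA (-0.45), below the dotted median of all genes (-0.01).

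By role, the catalytic and other constitutive beta genes had the lowest median (-0.56, all 8 beta genes with Psmb11), followed by the 19S non-ATPases (-0.51), the activators and inhibitor (-0.47), the core chaperones (-0.44, 3 tested), the ATPases (-0.40), the alpha genes (-0.34) and the cap chaperones (-0.22). Psmc4, with the lowest estimate among the ATPases, had 82 and 120 reads in WT and 52 and 59 in miR-379KO libraries (log2 fold change -0.68 ± 0.27 SE), and Psma7, the lowest alpha gene, 101 and 102 against 68 and 51 (-0.58 ± 0.24). Both had groups that did not overlap and missed the threshold. Psmb7 had 87 and 84 against 55 and 45 reads (-0.57 ± 0.25), also without overlap.

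The PA28 subunits and the other activators did not pass. Psme2 had 50 and 36 reads in WT and 29 and 13 in miR-379KO libraries (log2 fold change -0.83 ± 0.34 SE, adjusted p = 0.0701 by edgeR's quasi-likelihood test), and Psme1 28 and 32 against 20 and 16 (-0.54 ± 0.35). Both were lower in each miR-379KO library. Psme4 had 333 and 265 against 239 and 241 reads (-0.11 ± 0.23), with overlapping CPM, and Psmf1 43 and 25 against 29 and 22 (-0.20 ± 0.33). Among the chaperones, Psmg2 had 18 and 27 against 9 and 16 reads (-0.65 ± 0.43) and Psmd5 47 and 70 against 37 and 50 (-0.23 ± 0.30).

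The positive estimates were of genes with few reads, apart from Psmd14. Psmd14, the deubiquitinase of the lid, had 80 and 92 reads in WT and 80 and 71 in miR-379KO libraries (log2 fold change 0.0048 ± 0.24 SE). Psmb10 had 14 and 6 against 11 and 12 reads (0.41 ± 0.47), Psmd10 12 and 11 against 13 and 10 (0.20 ± 0.45) and Psmg1 15 and 10 against 13 and 13 (0.26 ± 0.44). None of these passed. Psma8 had 9 and 3 against 11 and 9 reads (0.93 ± 0.49), and Psmb11 11 and 5 against 15 and 16 (1.15 ± 0.47, adjusted p = 0.0633 by edgeR's quasi-likelihood test). Psmb8 (6 and 1 against 8 and 6 reads) and Psmb9 (2 and 1 against 2 and 2) were too low to test.

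Groups did not overlap in 29 proteasome genes in AGO2-IP. Both miR-379KO libraries lay below both WT libraries in 23 and above in 6 (Psma8, Psmb8, Psmb9, Psmb11, Psmd10 and Psmg1). These 6 had only 1 to 16 reads a library. Among the 34 with over 1000 reads in total RNA it was 21 below, where 69.6% of all such genes were below. This share was taken only over such genes and only for this direction, so the 6 above have no share beside them. The family as a whole made up 0.231% ± 0.0331 of the WT and 0.216% ± 0.00287 of the miR-379KO reads in genes without Rn45s and Lars2 (SD, n = 2 each), with single values of 0.207%, 0.254%, 0.218% and 0.214%. The 2 genotypes overlapped in this share.

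A difference between the AGO2-IP and the total RNA changes was tested as the interaction of genotype and assay in a fit of the 8 libraries. Of 48 proteasome genes tested, 0 passed edgeR's quasi-likelihood test at a Benjamini-Hochberg adjusted p under 0.05, as did 0 of all 17429 genes (0%), with a smallest adjusted p of 0.235 among the proteasome genes. At an unadjusted p under 0.05, 17 of the 48 were lower, against 10.9% of all genes, and 16 of the 34 with over 1000 reads, against 35.5% of such genes. DESeq2 called 0 of the 48, with 3 at an unadjusted p under 0.05. The median interaction was -0.78 on the log2 scale, or -0.85 over the 34, where all genes with over 1000 reads had -0.68. The 3 smallest p-values, named after they were seen, were those of Psmd3 (-1.34 ± 0.39 SE), Psmb7 (-1.10 ± 0.40) and Psmb4 (-1.06 ± 0.40). In these 3 the total RNA estimate was positive (0.25, 0.34 and 0.33) and the AGO2-IP estimate negative (-0.90, -0.57 and -0.54), and both estimates use libraries that also enter the interaction.

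The interaction moved with single libraries of both assays. Without WT B of total RNA 23 proteasome genes were called lower, against 25.9% of all genes with over 1000 reads, and the median was -1.20. Without any other single library 0 were called, and the median was -0.54 without WT A of total RNA, -0.33 without WT B of AGO2-IP and -0.50 without miR-379KO B of AGO2-IP. With an offset for exon length and GC content 10 were called lower, among them Psmd3 and Psmb7, against 18.3% of the genes with over 1000 reads.

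Proteasome mRNAs were recovered poorly in AGO2-IP compared with total RNA. In WT MMC 32 of the 48 proteasome genes were lower in AGO2-IP by at least 2-fold at an adjusted p under 0.05 (edgeR's quasi-likelihood test), against 7.33% of all genes, and 28 of the 34 with over 1000 reads, against 21.7% of all such genes. In miR-379KO MMC 41 of the 48 were lower, against 19.3%, and 33 of the 34, against 53.8%. The median log2 ratio of AGO2-IP over total RNA was -1.13 in WT and -1.93 in miR-379KO MMC, and over the 34 it was -1.25 and -2.08, where all genes with over 1000 reads had -0.45 and -1.09. The 2 assays differed in library protocol as well as in the immunoprecipitation, and these cannot be told apart. Genes were grouped by their total RNA reads, which also enter this comparison.

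The low recovery was shared by all parts of the particle. All 6 ATPases, all 7 expressed alpha genes and 6 of the 7 expressed beta genes were called lower in WT, as were 8 of the 11 non-ATPases. The lowest was Psmd13 (log2 ratio -1.65 ± 0.34 SE), with 1544 and 3129 reads in WT total RNA and 59 and 82 in WT AGO2-IP. In miR-379KO MMC the lowest was Psmb5 (-2.67 ± 0.37), with 2435 and 2064 reads in total RNA and 33 and 27 in AGO2-IP. These were 2 of many with nearly the same ratio.

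In the main fit Psme4 was the exception among the abundant members. It had 333 and 265 reads in WT AGO2-IP, the most of the 49 genes in WT A, and 239 and 241 in miR-379KO AGO2-IP, the most in both libraries. Its log2 ratio of AGO2-IP over total RNA was -0.03 ± 0.24 SE in WT and -0.26 ± 0.24 in miR-379KO MMC, and it was the only 1 of the 34 not called lower in miR-379KO MMC. Psme4 has the longest exon sequence of the family (6442 bases), with a GC content of 43.7% in a family range of 39.0% to 58.3%. Over 45 genes, without Psma8, Psmb11 and Psme2b, the WT ratio had a Spearman's rho of 0.287 with exon length and of 0.219 with 3′-UTR length, as a description across genes.

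In WT, Psmd11 (-0.50 ± 0.26 SE) and Psmd3 (-0.72 ± 0.27) of the 19S lid, and Psme2 (-0.63 ± 0.30), were among the genes not lower by 2-fold. All 3 were called lower in miR-379KO MMC (-1.40, -2.05 and -1.79). The same held for Psmb4, Psmd1, Psmd5, Psmd9, Psmf1 and Psmg2. The 2 genes higher in AGO2-IP in both genotypes were Psma8 and Psmb11, whose 1 to 4 reads in total RNA stood against 3 to 16 in AGO2-IP, so that no ratio is given. Without WT B of total RNA the WT count was 8 instead of 32, against 11.5% of genes with over 1000 reads, and the WT median was -0.76. Without any other single WT library it was 33 to 39.

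**Figure D5:**
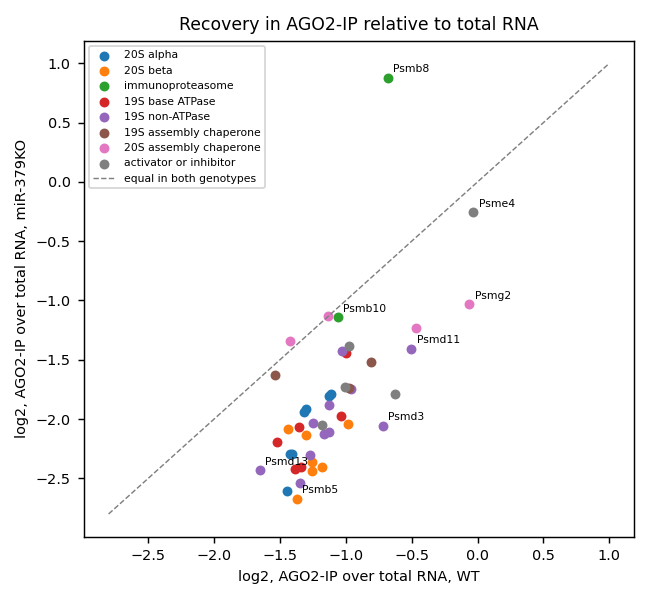
Log2 ratio of AGO2-IP over total RNA in WT (horizontal) and miR-379KO MMC (vertical) for 45 proteasome genes, coloured by role, with the line of equality. Most genes lie below the line, around the medians of -1.13 and -1.93, Psme4 lies near 0 on both axes and Psmb8 rests on 1 to 8 AGO2-IP reads a library.

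Genes that act with the proteasome were checked beside it. In total RNA 0 genes passed in any of 4 lists, that is 6 proteasome partners, 5 regulators, 9 activating and shuttle factors and 9 tested MHC class I genes. In AGO2-IP 5 fell and 1 rose by edgeR's quasi-likelihood test with Benjamini-Hochberg adjustment, of 29 tested, against 9.52% of all genes called lower and 21.4% called higher. Of the 17 tested with over 1000 reads in total RNA 4 fell, against 26.4% of all such genes.

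Pomp, the maturation factor of the core, had 40 and 60 reads in the WT and 27 and 20 in the miR-379KO libraries (log2 fold change -0.90 ± 0.33 SE). Nfe2l1, whose product raises proteasome genes, had 530 and 643 against 376 and 235 reads (-0.77 ± 0.26). Vcp, the segregase that hands proteins to the proteasome, had 649 and 828 against 471 and 330 (-0.71 ± 0.27). All 3 were lower in each miR-379KO library.

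Of the MHC class I list, B2m, the light chain, had 253 and 191 against 150 and 99 reads (log2 fold change -0.63 ± 0.23 SE) and Tap2, which carries peptides into the endoplasmic reticulum, 42 and 28 against 18 and 6 (-1.33 ± 0.40). Nlrc5, the activator of class I genes, had 20 and 9 against 29 and 26 reads (1.13 ± 0.38) and was too low to test in total RNA. Tap1, the partner of Tap2, did not pass (-0.12 ± 0.42). Of these 7 genes, Tap1 and the 2 with the largest p-values among those called, Pomp and Vcp, were named after their values were seen.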

How the data were processed

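The deposited values were counts, whole reads per RefSeq gene that the authors had not normalized, 1 list per sample. Per the study's methods, reads were aligned to mm10 with TopHat and counted strand-specifically with HTSeq 0.6.0, which leaves out reads that are not uniquely placed, so genes with near-identical copies are uncertain. Annotated pseudogenes exist for Psma5, Psmb5, Psmb6 and Psmb7. Reads outside genes (6.41% to 76.4% of uniquely placed reads) described the libraries and were not tested as genes.

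All genes were fitted in edgeR 4.0.16 (R 4.3.3) with TMM factors, its default filter (minimum count 10), robust dispersions and the quasi-likelihood test, with Benjamini-Hochberg adjustment over all genes tested. Genotypes were compared on the 4 libraries of an assay, and the interaction and the assay comparisons on all 8. CPM and RPKM were computed from the counts with TMM library sizes, and RPKM with exon lengths of GRCm38.p6, in which all 49 genes were found. Intervals of ratios are exact binomial and cover counting error only. The fits were tested on simulated data.

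Values in every library are given for the catalytic pairs, PA28, Psme4 and Psmf1, the extreme estimates of each role, called genes, and the highest and lowest gene per length. The genes and lists were chosen with earlier results of these data known. Pathway genes were named up to 5 per fit, and 1 further pathway list and 1 cell type marker are not reported here. Same-letter libraries deviated with a correlation of -0.106 in total RNA (10763 genes) and 0.037 in AGO2-IP (4971 genes), so the letters were not taken to pair samples. Alternatives were DESeq2 1.42.0, RLE factors, other filters, factors without Rn45s and Lars2, an offset for exon length and GC content, a replicate block, a crossed block added after the data were seen, all 8 libraries in 1 fit and omission of each library.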

Additional observations from a re-analysis of the deposited data

How the results depend on the processing

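In total RNA 0 proteasome genes were called under each alternative run, and the replicate block left 0 genes called, although the crossed replicate block, added after the data were seen, called 1 gene. With the GC and length offset Psme1 turned to -0.0428, Psme2 to -0.0523 and Psme4 to 0.0815. With 1 library left out the log2 fold change ran from -0.14 (without WT A) to 0.92 (without WT B) for Psmb5, -0.10 to 0.75 for Psmb6, -0.12 to 0.45 for Psme1, -0.0238 to 0.33 for Psme2 and -0.16 to 0.20 for Psmf1, with the same libraries left out, and from -0.29 (without WT B) to 0.11 (without WT A) for Psme4, and Psmf1 was also -0.12 without miR-379KO A. In AGO2-IP, proteasome genes called lower numbered 0 with DESeq2, 7 with RLE factors, 17 with no filter, 0 with a filter at a mean of 50 counts, 5 with the GC and length offset (0 of the 4 of the main analysis among them), 0 with all 8 libraries in 1 fit, 4 with the replicate block, and 0 to 13 with 1 library left out. All genes called in AGO2-IP, 4173 in the main analysis, numbered 802 with DESeq2, 274 with the filter at 50, 686 with all 8 libraries, and 918 to 3337 with 1 library left out. The median of the proteasome genes was -0.0294 with that filter and -0.67 to -0.26 with 1 library left out. Of tested genes with over 1000 reads in total RNA, 7.53% were called lower with DESeq2, 30.5% with RLE factors and 43.1% with no filter. The share was 1.05% with the filter at a mean of 50 counts and 32.5% with the GC and length offset. It was 21.3% with the replicate block and 6.32% with all 8 libraries in 1 fit, against 26.4% in the main analysis. For the interaction, genes called numbered 114 with DESeq2, 2 with the filter at 50, 953 with the GC and length offset (10 of them proteasome genes), 8 with the replicate block, and 0 to 1547 with 1 library left out (0 to 23 proteasome genes), and the median was -0.39 with that filter, -1.15 with the offset and -1.20 to -0.33 with 1 library left out. For AGO2-IP against total RNA the WT median was -1.53 with the offset and -1.66 to -0.76 with 1 library left out (8 to 39 genes called lower), and the miR-379KO median was -1.75 with RLE factors, -2.63 with the offset and -2.14 to -1.88 with 1 library left out, with 16163 genes called without a filter. With the offset, the genes with over 1000 reads had medians of -1.20 in WT and -2.12 in miR-379KO MMC, against -0.45 and -1.09 in the main analysis. Of these genes 60% and 88.1% were called lower with the offset, against 21.7% and 53.8%. Their interaction median was -0.94 with the offset and -0.27 with the filter at 50, against -0.68 in the main analysis. The Psmb10/Psmb7 ratio (miR-379KO over WT) was 0.865 to 1.09 with 1 library left out. With Rn45s and Lars2 counted, the proteasome share was 0.0327% in WT and 0.0432% in miR-379KO AGO2-IP, so its order turned. The cause of these shifts was not tested. The letters of replicates share only a name, and with the replicate block 3817 genes were called in AGO2-IP. Depth limits AGO2-IP, where the median proteasome gene had 45 to 81 reads, and 2 libraries a group limit every test.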
